A study of Mus musculus with 6 samples.

Results

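Inflammasome genes were followed in colonic macrophages from mice without a working IL10 receptor and from their controls. The 8 genes were Nlrp3, Nlrc4, Aim2, Pycard, Casp1, Casp4, Gsdmd and Mefv, taken by symbol from the deposited gene table. All 8 were among its 14097 genes, and all 8 passed the filter of 50 normalized counts, here in every one of the 6 libraries, so that 8 of the 11067 genes tested were members of this group. The question was how the transcripts of inflammasome sensors, of their adaptor and of the caspases and pore protein below them varied with the genotype and with age.

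Inflammasomes are protein complexes that form in the cytosol of macrophages when a sensor meets its trigger. NLRP3 responds to disturbances such as loss of potassium, NLRC4 to bacterial flagellin and secretion needles passed on by NAIP proteins, AIM2 to DNA in the cytosol, and pyrin, the product of Mefv, to certain bacterial toxins. The adaptor ASC, encoded by Pycard, links sensors to caspase-1, which matures IL-1β and IL-18 and cuts gasdermin D (Gsdmd), whose fragments open pores in the cell membrane. The product of Casp4, caspase-11 in the mouse, cuts gasdermin D after binding bacterial lipopolysaccharide. In the gut this pathway stands between macrophages and the microbiota, and IL10 is known to restrain the transcription of its products.

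RNA-seq was performed on 6 libraries of P3/P4 MΦs from 129SvEv mice, sorted as CD45+CD11b+CD11cintCD103-CD64+Ly6C-MHCII+ cells of the colon. Il10rb-/- MΦs, which lack the β chain of the IL10 receptor, were compared with MΦs of Il10rb+/- mice, here called control, which still carry 1 disrupted allele. There was 1 library per genotype at 1, 3 and 12 weeks. At 3 and 12 weeks a library came from 1 mouse, while the 1-week libraries were pools of 3 to 5 mice by the labels and of 4 or more by the methods. Animals of both sexes were used, and the receptor is missing from every cell type of the null mice, not from MΦs alone. The paper describes colitis in the null mice from around weaning onwards, and not in their littermate controls. At 3 and 12 weeks, colitis and genotype thus cannot be told apart. The part of colitis in the genotype ratios was not tested. Strains of the 129 group are known to carry an inactivating mutation of Casp4, so its counts report a transcript and not a working protein.

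The upstream sequences of the 3 genes whose level changed with age are shown because 2 of them, Mefv and Casp4, rose together while Nlrc4 fell. They run 5′ to 3′ up to the start site or to the first base annotated as exon, in RefSeq's promoters of GRCm38.p6, where 7 of the 8 genes have entries and Gsdmd has none. Capitals mark a κB-type motif, GGG and TTTCC with 2 bases of any kind between them.
Casp4, plus strand, chr9:5308599-5308827: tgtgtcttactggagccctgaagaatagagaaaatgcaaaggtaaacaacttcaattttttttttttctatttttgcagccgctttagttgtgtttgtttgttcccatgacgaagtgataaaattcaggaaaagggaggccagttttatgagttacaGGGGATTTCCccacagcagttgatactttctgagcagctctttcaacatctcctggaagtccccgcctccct
Mefv, minus strand, chr16:3718125-3718374: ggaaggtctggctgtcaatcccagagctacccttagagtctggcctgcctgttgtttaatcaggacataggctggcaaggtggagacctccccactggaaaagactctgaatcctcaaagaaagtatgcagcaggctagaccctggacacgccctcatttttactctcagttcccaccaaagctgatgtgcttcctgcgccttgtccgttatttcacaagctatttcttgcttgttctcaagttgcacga
Nlrc4, minus strand, chr17:74459143-74459358: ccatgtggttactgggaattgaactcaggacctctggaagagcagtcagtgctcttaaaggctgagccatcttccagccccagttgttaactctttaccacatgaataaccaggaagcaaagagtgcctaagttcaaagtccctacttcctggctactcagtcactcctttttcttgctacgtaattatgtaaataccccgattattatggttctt

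The 250 bases before each start site were searched on both strands for 3 short motifs. These were the κB type above, the GAS motif TTCNNNGAA and the interferon-type ISRE core, a pair of GAAA with 2 bases between them. Of the 32851 RefSeq promoters, 1.41% held the κB type, 7.02% the GAS motif and 2.98% the ISRE core. Among the 7 genes only Casp4 had a match. Its 2 matches were of the κB type and began 93 and 14 bases before the start at position 5308849, the nearer lying in bases that another annotation counts as exon. The other 6 genes showed none of the 3 motifs in this window.

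The libraries differed in depth, between 6700337 reads on listed genes (3-week control) and 40754971 (12-week control). No member had fewer than 116 reads in any library. Il10rb itself had 1231, 386 and 2341 reads in the control libraries at 1, 3 and 12 weeks and 8, 28 and 43 in the Il10rb-/- libraries. All 12 macrophage markers were detected throughout. In the 12-week Il10rb-/- library 8 of them were below the control of that age. Of these, 5 (Cx3cr1, Adgre1, C1qa, C1qb and C1qc) were 3.47- to 8.91-fold lower, Cx3cr1 at 906 normalized counts against 8074. Mertk, Cd68 and Csf1r were 2.10-, 1.30- and 1.01-fold lower, while Fcgr1, Itgam, H2-Aa and H2-Ab1 were 1.02- to 1.40-fold higher. That library also stood apart in 12 neutrophil markers, whose summed level was 14045 against 2010 to 4361. Csf3r weighed most in that sum (6944 against 1414 to 2120 elsewhere). S100a8 was at 1673 against at most 12.8 and S100a9 at 2906 against at most 33.6. Of the 9 neutrophil markers past the filter, 8 were higher than in the 12-week control, while Mmp9 was lower (416 against 1090). Y-linked transcripts of 4 genes gave 1123 reads in the 1-week control pool and 5 to 46 in the other libraries. Only that pool thus held a clear signal of male cells, so that at 1 week sex and genotype cannot be told apart.

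Nlrp3 was the most abundant sensor transcript, and it was higher in Il10rb-/- MΦs at each age. Control MΦs had 4247, 3806 and 7164 normalized counts of Nlrp3 from the youngest to the oldest age, and Il10rb-/- MΦs had 4691, 5568 and 13342. The 12-week control value exceeded both younger Il10rb-/- values, so the genotypes overlapped across ages. The log2 ratio of Il10rb-/- over control was 0.14 at 1 week (95% interval 0.08 to 0.21), 0.55 at 3 weeks (0.47 to 0.63) and 0.90 at 12 weeks (0.87 to 0.93). These exact Clopper-Pearson intervals cover counting error only, because 1 library per group allows no test at a single age.

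Mefv varied most. In control MΦs it went from 115 normalized counts at the first age to 1338 at the second and 3013 at the last. In Il10rb-/- MΦs it went from 428 to 1735 and 6213, so that the libraries spanned a 54.0-fold range. Each age lay wholly above the one before it, and within each age the Il10rb-/- library was the higher. The 1-week log2 ratio of 1.90 (1.58 to 2.22), a 3.72-fold difference, was the only genotype ratio of the 8 genes beyond 3-fold at any age. At 3 and 12 weeks the log2 ratios were 0.37 (0.24 to 0.51) and 1.04 (1.00 to 1.09). The summed level of 8 monocyte markers, in which Ccr2, F13a1 and Fn1 weighed most, was 5736 in control and 14057 in Il10rb-/- MΦs at 1 week and 28701 to 41723 in the older libraries. Its part in the Mefv values was not tested. In bulk RNA, more cells of a type and more RNA per cell cannot be told apart.

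Nlrc4 moved the other way with age. The 1-week libraries had 1341 (control) and 1044 (Il10rb-/-) normalized counts, the 3-week libraries 874 and 689, and the 12-week libraries 428 and 370.0. Every library was below both libraries of the preceding age, and the Il10rb-/- library was the lower within each age, with log2 ratios of -0.36 (-0.49 to -0.23), -0.34 (-0.52 to -0.16) and -0.21 (-0.36 to -0.06). In the annotation a pseudogene, CT033749.1, lies within the bounds of Nlrc4 on the same strand.

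Aim2 was the sensor with the narrowest range, 1.57-fold over the libraries. Its 3 control libraries, by age, had 627, 472 and 714 normalized counts and its 3 Il10rb-/- libraries 454, 565 and 559.7. Il10rb-/- MΦs were thus lower at 1 and 12 weeks and higher at 3 weeks, with log2 ratios of -0.47 (-0.67 to -0.27), 0.26 (0.03 to 0.50) and -0.35 (-0.47 to -0.23). Aim2 overlaps Cadm3 on the opposite strand, and the strand setting of the counting is not given in the sources used here.

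Pycard, the shared adaptor, was about as steady, with a range of 1.56-fold. By age it had 1026, 1217 and 1224 normalized counts in control and 1204, 1269 and 1603 in Il10rb-/- libraries. The Il10rb-/- library was the higher each time, but at 3 weeks the interval of the log2 ratio (0.06, -0.09 to 0.21) spanned 0. At 1 and 12 weeks the log2 ratios were 0.23 (0.10 to 0.37) and 0.39 (0.31 to 0.47). Pycard also overlaps a gene on the other strand, Gm45205.

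**Figure D1:**
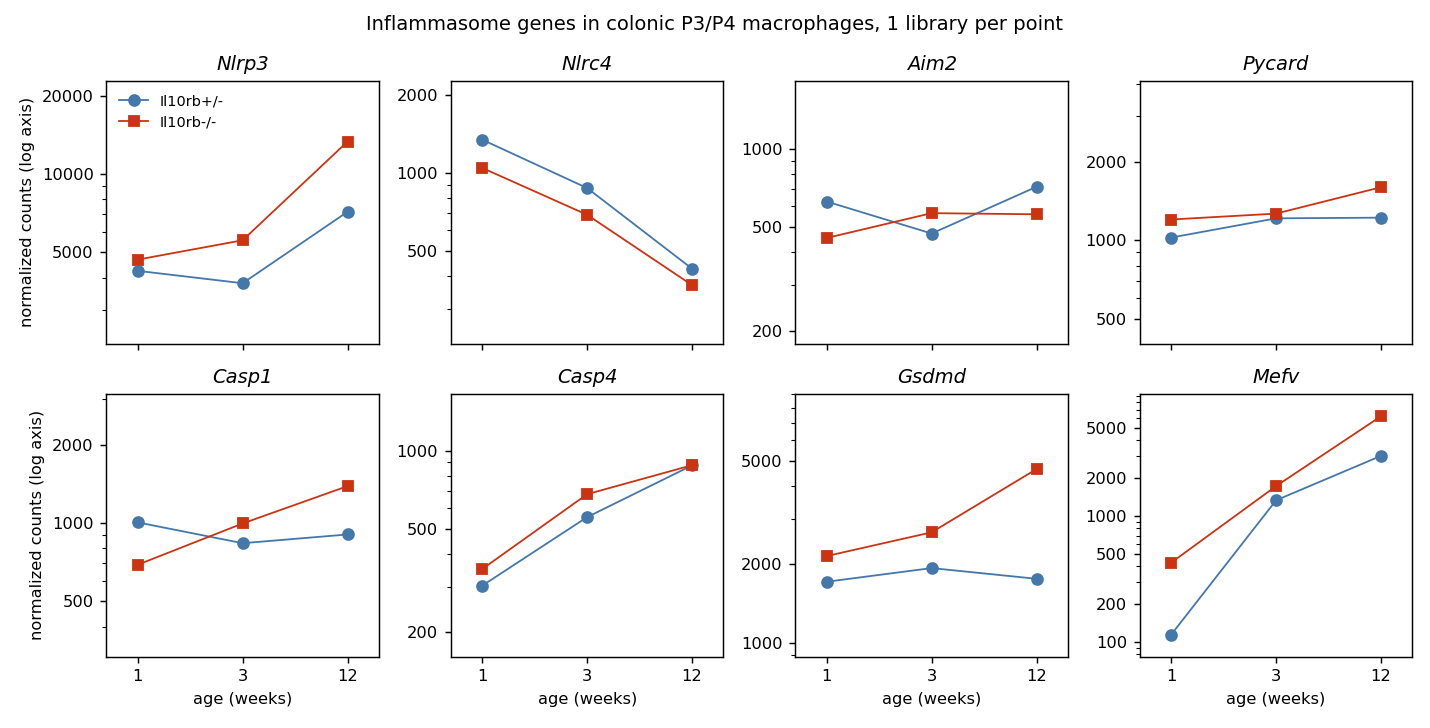
Normalized counts (log axis) of the 8 inflammasome genes against age in weeks, 1 point per library, with Il10rb+/- as circles and Il10rb-/- as squares. Every panel but that of Mefv spans the same ratio from bottom to top. Mefv climbs from 115 to 6213 and Nlrc4 descends from 1341 to 370.0, while Aim2 and Pycard stay within 1.6-fold.

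The caspase genes lie side by side on chromosome 9, Casp1 at chr9:5298517-5307265 and Casp4 at chr9:5308828-5336783, with 1562 bases between them, but they followed different courses. Casp1, the protease of the canonical pathway, had by age 1006, 837 and 904 normalized counts in control libraries against 692, 997 and 1388 in Il10rb-/- libraries. It showed no order with age in control libraries and climbed in the Il10rb-/- libraries, so that its log2 ratio was -0.54 (-0.70 to -0.38) at 1 week, 0.25 (0.08 to 0.43) at 3 weeks and 0.62 (0.53 to 0.71) at 12 weeks. Casp4 climbed with age in both genotypes, through 302, 555 and 877 normalized counts in control and 350.5, 679.7 and 879 in Il10rb-/- libraries. At 12 weeks its libraries were level, with a log2 ratio of 0.00 (-0.10 to 0.10), and at 1 week its interval also spanned 0 (0.21, -0.04 to 0.46). At 3 weeks the log2 ratio was 0.29 (0.08 to 0.51).

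Gsdmd, which encodes the pore-forming protein, was the only one of the 8 genes whose genotypes did not overlap over all 6 libraries. Its counts were 1714, 1935 and 1759.7 in control MΦs and 2152, 2656 and 4648 in Il10rb-/- MΦs at 1, 3 and 12 weeks. Of all genes tested, 5.64% separated the genotypes in this way in either direction, beside 1 of 8 here. The log2 ratios were 0.33 (0.23 to 0.43), 0.46 (0.34 to 0.57) and 1.40 (1.34 to 1.46). The largest was at 12 weeks, in the library in which the summed neutrophil markers were also highest. The part of neutrophils in the Gsdmd, Nlrp3 and Mefv values was not tested. Without the 12-week libraries, the difference for Gsdmd over the 2 younger ages was 0.39 on the log2 scale, against 0.73 over all 3 ages.

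**Figure D2:**
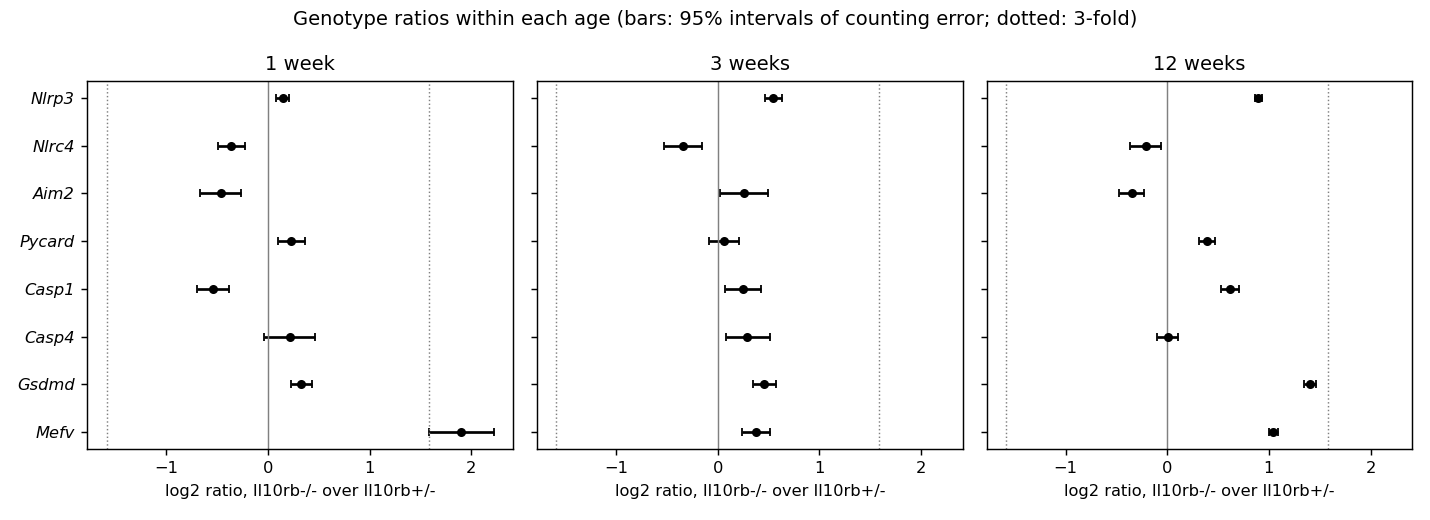
Log2 ratio of Il10rb-/- over Il10rb+/- normalized counts for each gene, in 1 panel per age. Bars are 95% Clopper-Pearson intervals of counting error, the solid line marks no difference and dotted lines mark 3-fold. Nlrc4 lies left of 0 at each age, Casp1 and Aim2 cross from side to side, and Gsdmd moves out to 1.40 at 12 weeks.

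Set against all genes, few of these ratios were large. At 1 week 1 of the 8 genes, Mefv, was over 3-fold higher in Il10rb-/- MΦs, where 2.75% of all genes were. At 3 weeks 0 of 8 passed 3-fold in either direction (1.98% of all genes), and at 12 weeks 0 of 8 (14% of all genes). The median log2 ratio of the 8 genes was 0.18 at 1 week, 0.28 at 3 weeks and 0.50 at 12 weeks, beside medians over all genes of -0.04, 0.02 and 0.04. Scaling to total reads in place of the size factors shifted every 12-week log2 ratio by -0.22, which brought that median to 0.28 and put Casp4 at -0.22. Nlrp3, Pycard, Casp4, Gsdmd and Mefv were higher in Il10rb-/- MΦs at all 3 ages, as were 17.4% of all genes, and Nlrc4 was lower at all 3, as were 17.2%. With total reads, and with TMM scaling (-0.06 at 12 weeks), Casp4 no longer belonged to the first group.

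The 3 Il10rb-/- libraries were then compared with the 3 control libraries in limma, with age as a term, so that the error is the variation of the genotype difference between ages. No gene of the 11067 passed an adjusted p of 0.05 (0% called), and 0 of the 8 did. At an unadjusted p under 0.05, 853 genes (7.71%) and 3 of the 8, Nlrp3, Gsdmd and Mefv, were found. Their differences were 0.53 ± 0.20 (SE), 0.73 ± 0.25 and 1.10 ± 0.30 on the log2 scale, each with a limma adjusted p of 0.627 and each in the same direction in 3 of 3 ages. Nlrc4 differed by -0.30 ± 0.15 (limma adjusted p = 0.627, lower in 3 of 3 ages). Pycard (0.23 ± 0.16), Casp4 (0.17 ± 0.16), Aim2 (-0.19 ± 0.20) and Casp1 (0.11 ± 0.25) had limma adjusted p-values between 0.657 and 0.895.

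With age, some genes did pass the test. In the same model, with the genotypes as the 2 libraries of each age, 555 genes (5.01%) were higher and 247 (2.23%) lower at 12 than at 1 week, and 3 of the 8 inflammasome genes were among them. Mefv rose by 4.28 ± 0.37 on the log2 scale (limma adjusted p = 0.0114) and Casp4 by 1.43 ± 0.20 (limma adjusted p = 0.0247), while Nlrc4 fell by 1.57 (SE 0.19, limma adjusted p = 0.0195). The directions were the same in both genotypes. Between control libraries alone Mefv was over 3-fold higher (26.2-fold, 9.69% of all genes) and Nlrc4 over 3-fold lower (3.13-fold, 2.57%) at 12 than at 1 week, and between Il10rb-/- libraries only Mefv passed 3-fold (14.5-fold higher, 9.55%). Nlrp3 differed by 1.13 ± 0.25 with a limma adjusted p of 0.0555, Gsdmd by 0.57 ± 0.31 (0.258), Pycard by 0.33 ± 0.19 (0.287), Casp1 by 0.42 ± 0.31 (0.389) and Aim2 by 0.24 ± 0.25 (0.534). The Gsdmd value rested on the 12-week libraries: it was 0.070 without that of Il10rb-/- MΦs and 1.08 without that of control MΦs. That of Casp1 was 0.044 and 0.80. Between neighbouring ages, 0 of the 8 passed the test (2 genes of 11067, 0.0181%, from 1 to 3 weeks and 3, 0.0271%, from 3 to 12 weeks), with 3 (8.65% of all genes) and 4 (20.4%) of the 8 at an unadjusted limma p under 0.05.

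The age calls were close to the threshold. Without the 1-week control library, Nlrc4 and Casp4 had limma adjusted p-values of 0.0582 and 0.0747, and without the 1-week Il10rb-/- library 0.0571 and 0.0814. The log2 differences stayed at -1.53 and -1.61 for Nlrc4 and at 1.40 and 1.46 for Casp4. Without a mean-variance trend in the model, 0 of the 8 genes passed (limma adjusted p of 0.0512 for Mefv, 0.0592 for Nlrc4 and 0.0656 for Casp4). Over 11 alternatives the adjusted p ranged from 0.000336 to 0.0592 for Nlrc4, from 0.00106 to 0.0814 for Casp4 and from 1.24e-06 to 0.0512 for Mefv. Because the 1-week libraries were the only pools, pooling and age cannot be told apart, and the 3 age contrasts share libraries. Sex is a further limit. The control libraries had 1123 Y-linked reads at 1 week, 5 at 3 weeks and 23 at 12 weeks. Between the 1-week control pool and the older control libraries, sex and age thus cannot be told apart.

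**Figure D3:**
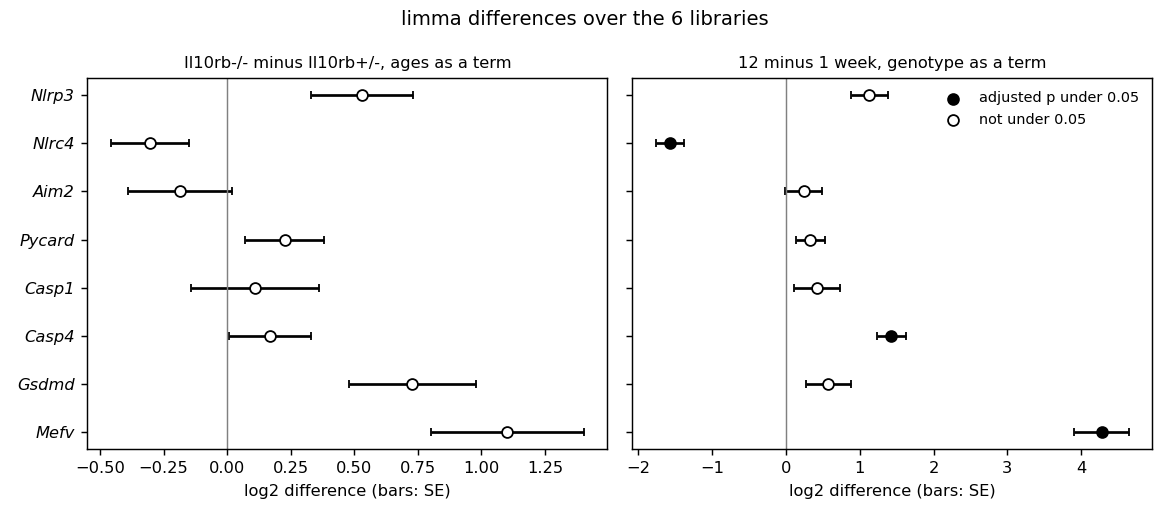
Log2 differences from limma with their SE (bars) for the 8 genes, on the left Il10rb-/- minus Il10rb+/- and on the right 12 minus 1 week. Filled points have an adjusted p under 0.05. No point is filled on the left, and Mefv, Casp4 and Nlrc4 are filled on the right.

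Levels of different genes were compared per kilobase of exon. On this scale Nlrp3 ranked first of the 8 in each of the 6 libraries, between 938 and 3289 normalized counts per kb, followed by Gsdmd in 5 libraries and by Mefv in the 12-week control library. With the longest annotated transcript as the length, Gsdmd overtook Nlrp3 in 3 of the libraries. The order of neighbours thus rests on the gene model, and for Pycard strongly so. Its annotated exons span 3800 bases, of which 579 are coding, and it had rank 4 or 5 of 8 per kb of exon but rank 1 in 4 libraries per kb of coding sequence. Casp1 had rank 3 or 4, and Aim2, Casp4 and, after 1 week, Nlrc4 took low ranks, while Mefv ranked last in the 1-week control library.

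Among the 4 sensors, the make-up of the transcripts shifted between the ages. Nlrp3 supplied 56.3% to 70.7% of the summed sensor level per kb in every library. Mefv supplied by age 2.30%, 24.7% and 31.0% in control and 8.06%, 24.1% and 35.2% in Il10rb-/- libraries. Nlrc4 supplied 18.1%, 10.9% and 2.98% in control and 13.3%, 6.49% and 1.42% in Il10rb-/- libraries. Aim2 supplied between 2.94% (12-week Il10rb-/-) and 11.6% (1-week control). Per kb of coding sequence the mean share of Aim2 over the libraries was 16.3% in place of 7.45%, and that of Nlrp3 55.4% in place of 62.8%.

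**Figure D4:**
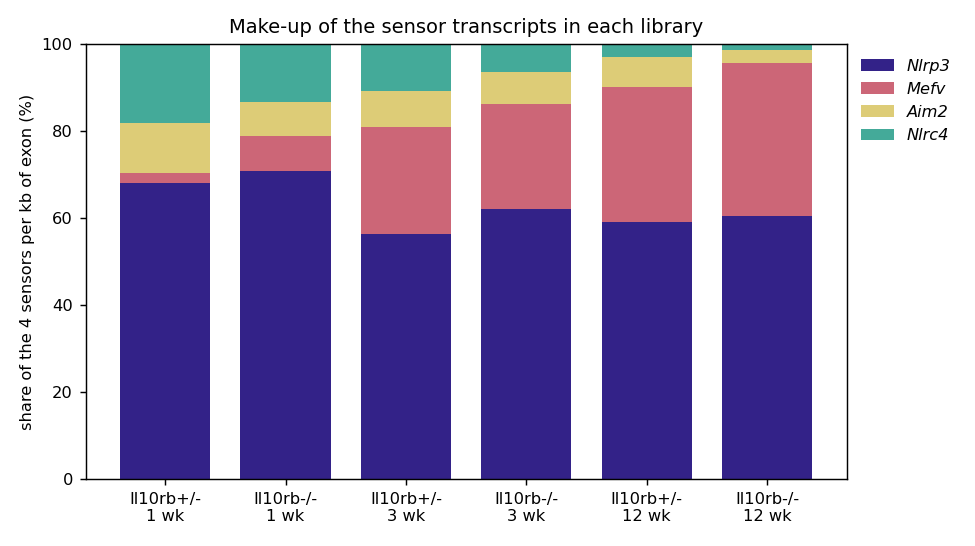
Share of each of the 4 sensor genes in their summed level per kb of exon (%), 1 stacked bar per library. The share of Mefv widens from 2.30% to 35.2% and that of Nlrc4 narrows from 18.1% to 1.42%, with Nlrp3 the largest throughout.

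The other genes of the pathway were described from 5 lists of 73 genes, of which 67 were in the table and 60 passed the filter. In limma, 0 of the 60 were called between genotypes (15 at an unadjusted p under 0.05, as were 7.71% of all genes), and 9 were called higher and 0 lower at 12 than at 1 week (5.01% and 2.23% of all genes). Over 3-fold, 1 gene at 1 week (2.75% of all genes) and 5 genes at 3 weeks (1.34%) were higher in Il10rb-/- MΦs. The 12-week libraries had 13 such genes and 1 gene over 3-fold lower, the scavenger receptor gene Cd36 (448 normalized counts against 6752 in control), where 4.03% of all genes were over 3-fold higher and 9.99% lower.

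Of 15 further sensors and adaptors, 1 was called with age, Mnda, which encodes an IFI200-family protein and rose by 1.47 on the log2 scale (limma adjusted p = 0.0333). Zbp1, a sensor of Z-form nucleic acids, had 238, 314 and 197 normalized counts in control MΦs and 174, 619 and 1735 in Il10rb-/- MΦs at 1, 3 and 12 weeks. The peptidoglycan sensors Nod2 and Nod1 and the NLRC4 partner Naip2 were nearest to it in the size of their genotype difference, with 12-week log2 ratios of 1.74, 2.26 and 1.17. All 4 ratios were larger than that of Nlrp3 at this age, but their limma adjusted p-values lay between 0.627 and 0.647. Naip5 and Naip6, the other NAIP genes past the filter, had 12-week log2 ratios of 0.49 and -0.01.

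Among 9 other caspase, gasdermin and cell death genes, Ninj1, which encodes the protein that ruptures the membrane after gasdermin pores form, rose with age by 1.79 on the log2 scale (limma adjusted p = 0.0142). It had 2281 and 2846 normalized counts at 1 week and 8354 and 9334 at 12 weeks, control first. Dfna5, the gene of gasdermin E, was lower in the Il10rb-/- library at each age, with log2 ratios of -0.95, -0.45 and -1.05, opposite in sign to Gsdmd. The necroptosis effector Mlkl and the caspase gene Casp12 had 12-week log2 ratios of 0.93 and 1.61, Casp12 from at most 76.4 normalized counts. The genotype differences of Dfna5, Mlkl and Casp12 missed the limma threshold (adjusted p = 0.627 for each).

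Of 18 activators, licensing factors and inhibitors, Pstpip1, whose product binds pyrin, rose by 2.52 on the log2 scale from 1 to 12 weeks (limma adjusted p = 0.0185), and the protease inhibitor gene Serpinb1a by 1.997 (limma adjusted p = 0.0270). Pstpip1 had 104, 623 and 693 normalized counts in control and 249, 716 and 1244 in Il10rb-/- MΦs. The interferon-inducible GTPase genes Gbp2 and Gbp5, whose products act on bacterial membranes upstream of caspase-11, and the related Irgm1 were lower in Il10rb-/- MΦs at 1 week and higher afterwards. For Gbp2 the interval of the 1-week log2 ratio spanned 0 (-0.28, -0.60 to 0.04). Gbp2 stood by age at 225, 253 and 328 normalized counts in control and at 186, 1474 and 7353 in Il10rb-/- libraries. The 12-week log2 ratios of the 3 genes were 4.49, 4.43 and 2.46, while that of Casp4 was 0.00.

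The list of substrates and products, with 5 genes past the filter, had the highest median ratio of the lists at 12 weeks. Il1b had by age 44268, 77011 and 159466 normalized counts in control libraries and 66014, 122372 and 556585 in Il10rb-/- libraries. It rose by 2.46 on the log2 scale from 1 to 12 weeks (limma adjusted p = 0.0381), and its genotype difference was 1.02 ± 0.36 (limma adjusted p = 0.627). Il18 was far less abundant, with 282, 399 and 560.3 in control and 350.5, 391 and 1312 in Il10rb-/- libraries, and did not pass the age test (1.45, limma adjusted p = 0.0615). Il1rn, which encodes the IL-1 receptor antagonist, rose by 3.28 (limma adjusted p = 0.0114) and was higher in the Il10rb-/- library at each age, with log2 ratios of 1.67, 1.08 and 1.59. Il1a and the IL-18 antagonist gene Il18bp had 12-week log2 ratios of 2.42 and 3.21.

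Of 13 priming receptors and transcription factors, 3 rose from 1 to 12 weeks: Tlr5, the flagellin receptor at the cell surface, by 1.57 (limma adjusted p = 0.0292), and the NF-κB genes Nfkb1 by 1.27 (0.0298) and Rela by 1.00 (0.0489). Tlr5 reached its level by 3 weeks, with 89.2 and 94.4 normalized counts at 1 week and 264 to 293 in the older libraries. The lipoprotein receptor gene Tlr2 and the lipopolysaccharide receptor gene Tlr4 had 12-week log2 ratios of 1.65 and -0.21.

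**Figure D5:**
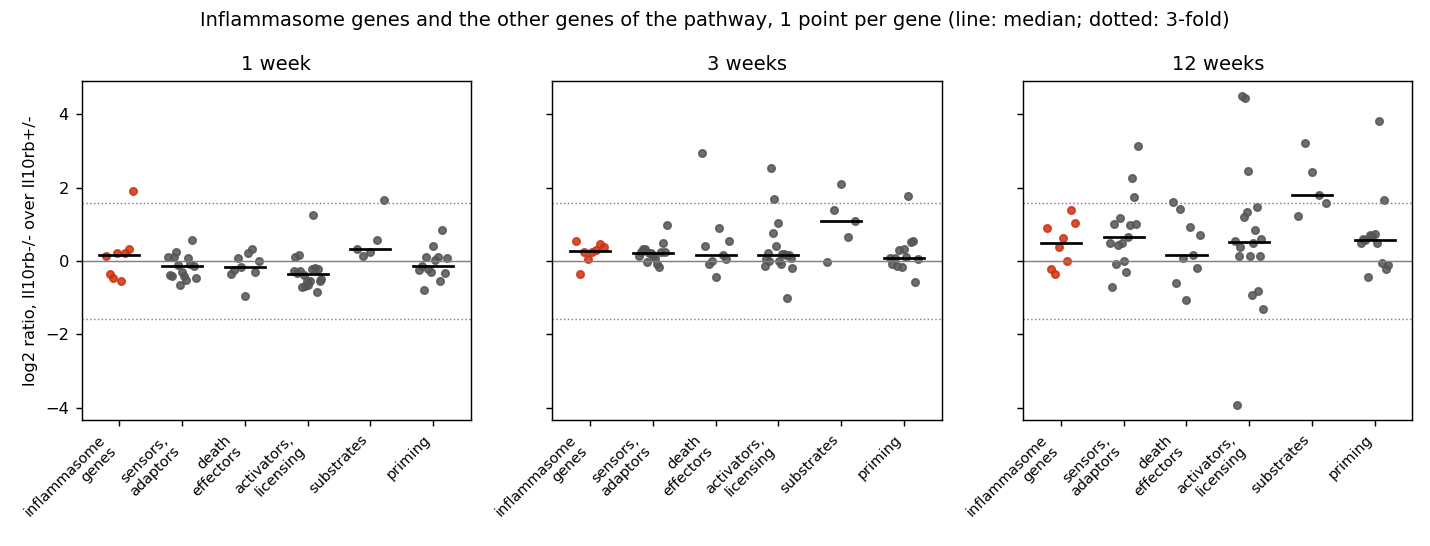
Log2 ratio of Il10rb-/- over Il10rb+/- at each age for the 8 inflammasome genes and the 60 other pathway genes past the filter, 1 point per gene, with list medians as lines and 3-fold as dotted lines. At 12 weeks the median of the 8 genes is 0.50, below the 1.80 of the substrates and products, a list that includes antagonist genes. The 8 genes stay within 3-fold at that age while 14 other genes do not.

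The medians of the lists at 12 weeks were 0.67 for the sensors and adaptors, 0.16 for the death effectors and 0.53 for the activators and inhibitors. They were 1.80 for the substrates and products and 0.57 for the priming genes, beside 0.50 for the 8 genes and 0.04 over all genes. All of these shift by -0.22 with total reads.

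Some inflammasome genes shared a course over the 6 libraries, which is given as a description since the libraries share age and depth. On log2 counts Mefv and Casp4 had a Pearson correlation of 0.97, Nlrc4 correlated at -0.95 with Casp4 and at -0.94 with Mefv, and Pycard at 0.92 with Gsdmd. Casp1 and its neighbour Casp4 correlated at 0.52. The genes most like each member over the 6 libraries were S100a11 and Alox5ap for Mefv (0.998 and 0.997), Arih2 and Sde2 for Nlrp3 (0.997), Tesk2 and Fam76b for Nlrc4 (0.997), Mbd2 and Suds3 for Pycard (0.998), Otud5 and Abcf1 for Gsdmd (0.998 and 0.996), Aen and Mpnd for Casp4 (0.997 and 0.992), Zfp366 and Zfp281 for Casp1 (0.990 and 0.988), and Hivep1 and Sars2 for Aim2 (0.977 and 0.969). S100a11 encodes a calcium-binding protein and Alox5ap the activator of leukotriene synthesis.

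Transcripts of other cell types also differed between the libraries. Of the 12 neutrophil markers in the table, 6 in the 1-week control library and 0 in the 12-week Il10rb-/- library were at 0 reads, and Ngp had reads only in the latter (282). The summed epithelial markers were 189 in the 1-week control library and 839 to 2431 in the others. The dendritic cell list reached 39828 in the 12-week Il10rb-/- library against 1236 to 10831 elsewhere, through Ccr7 (38707). B and plasma cell markers peaked at 17670.4 in the 12-week control library (752 to 2323 elsewhere), and the summed T cell markers lay between 1003 and 3314, mostly through Cd4, which macrophages also express. Cd4 was lowest in the 12-week Il10rb-/- library (210.1 normalized counts against 1712 to 3227 elsewhere), while Cd3e (93.0), Cd3d (41.4), Cd3g (154), Lck (303) and Cd8a (41 reads, against 0 in the other 5 libraries) were highest there. Cd2, also on the T cell list, was lower in that library than in the 12-week control (175 against 748). Eosinophil markers lay between 60.5 and 233, and Kit, the only gene of the mast cell list in the table, lay between 114 and 2554. The part of these cells in the values of the 8 genes was not tested.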

How the data were processed

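Per the labels and the methods, single-end reads of 75 bases were mapped by the authors to mm10 (TopHat), assigned to genes (HTSeq) and scaled by DESeq size factors. The deposited values are this normalized signal per gene, with a count of 0 shown as 1. They do not sum to a fixed total and are not per length. Versions, annotation and strand setting are not given in the sources used here. The labels name a SMART-Seq kit and the methods oligo dT beads. In each library 100% of the values above 1 were whole multiples of 1 step within 0.01 reads, so reads were read back (0.473 to 2.43 normalized counts per read). They were used for the intervals, the read numbers and depths, and the scalings by total reads and TMM. The main limma fit used the deposited values.

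Groups came from the labels. limma 3.58.1 (R 4.3.3) was fitted to log2(value + 1) over the 11067 genes at or above 50 normalized counts in at least 1 library, with genotype and age as terms, a mean-variance trend (2 residual and 3.56 prior degrees of freedom) and Benjamini-Hochberg adjustment. Changes on this scale understate those of low genes. No replicate library exists within a group, so p-values rest on the spread between ages or genotypes. Log2 ratios within an age have no test, and the threshold of 3-fold is the study's. On simulated data with 200 of 11067 genes changed by 8-fold between genotypes, limma called 200 and 6 others. Whether limma would call smaller differences, or genotype ratios that vary between ages as that of Gbp2 did, was not tested. The counting intervals covered 95.7% of 1000 simulated ratios at 3 weeks. Positions and lengths are from GENCODE for GRCm38, in which 14085 of 14097 genes were found, and promoters from RefSeq. Python 3.11.15 (numpy 2.4.6, pandas 2.3.3, scipy 1.17.1, matplotlib 3.10.9) was used for the rest.

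The 8 genes, the pathway lists and the marker lists were chosen with earlier results of these data known. Named were all 8 genes, Il10rb, Il1b and Il18, the 4 genes of each pathway list with the largest genotype coefficient, list genes past the adjusted threshold, and the 2 genes most correlated with each of the 8. Others (Naip5, Naip6 and the single markers) were named after their values were seen. Of the genes this rule names, 2 are not reported here.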

Additional observations from a re-analysis of the deposited data

Results flagged for a closer look

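The genotype ratio of Aim2 and of Casp1 pointed in opposite directions at different ages, with counting intervals that excluded 0 at every age. For Aim2 the log2 ratio of Il10rb-/- over control was -0.47 at 1 week, 0.26 at 3 weeks and -0.35 at 12 weeks. For Casp1 it was -0.54 at 1 week, 0.25 at 3 weeks and 0.62 at 12 weeks. Whether the genotype effect differed between ages was not tested, because each age has 1 library per genotype. With total reads as the scale, every 12-week ratio shifts by -0.22, which leaves the sign of both genes at 12 weeks as it was.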

How the results depend on the processing

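With 1 library per group, nothing here separates genotype at a given age from the mouse or pool that was sequenced, and a library's depth limits only the counting error, which was small (116 reads or more per gene). Count models (edgeR and DESeq2) had been planned and were not run. This was a choice: the table holds normalized values, although reads were read back from them for the intervals and the alternative scalings. The model with age as a term compares the genotypes within each age, and no other pairing of libraries was available.

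Between genotypes, the number of the 8 genes called by limma was 0 under all 10 alternatives. Over all genes, 1 was called lower with a pseudocount of 10 and 1 without an age term. Leaving out the libraries of 1 age gave 2 to 51 genes higher and 1 to 10 lower, and a Casp1 difference of -0.14 (without the 12-week libraries) to 0.43.

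For 12 against 1 week, total reads as the scale gave 1994 genes lower and turned Aim2 to -0.24, Pycard to -0.16 and Casp1 to -0.064. Alternatives added after seeing the data changed more. Without a mean-variance trend, 70 genes were called higher and 13 lower, with 0 of the 8 in either direction (limma adjusted p of 0.0512 for Mefv, 0.0592 for Nlrc4 and 0.0656 for Casp4). Leaving out 1 library at a time gave 252 to 2096 genes higher and 15 to 1813 lower, and of the 8 genes 1 to 5 higher and 0 to 1 lower. Mefv was called in each of these 6 fits. Without the 12-week control library Nlrp3, Casp1 and Gsdmd were called too (limma adjusted p of 0.000734, 0.0387 and 0.00276), without the 12-week Il10rb-/- library Nlrp3 (0.0285), and without the 1-week Il10rb-/- library Casp1 turned to -0.063 (up to 0.91 in the others). The same fits called 0 to 2 of the 8 higher from 1 to 3 weeks, and 0 to 3 higher and 0 to 1 lower from 3 to 12 weeks.

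For ratios within an age, a pseudocount of 10 left 125 genes over 3-fold at 1 week and 85 at 3 weeks, no filter gave 1124, 895 and 2947 at 1, 3 and 12 weeks, and a 2-fold threshold gave 770, 548 and 2718, with 2 of the 8 higher at 12 weeks. The 12-week median of the 8 was 0.28 with total reads. Per kb of coding sequence (added), Nlrp3 made up 55.4% and Aim2 16.3% of the sensors. The causes of these shifts were not tested.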
